A study of Homo sapiens with 8 samples.

Results

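The semaphorin, plexin, netrin and Slit guidance genes were examined in prostate cancer cells with raised or lowered MYCL, the gene of the transcription factor L-MYC. They comprised 44 of the 78691 genes in the count table, chosen by name, of which 25 encode ligands and 19 encode receptors or co-receptors, and each was found under its own name. C4-2B, a castration-resistant prostate adenocarcinoma line, was transduced by lentivirus with an empty vector (control) or with a vector for MYCL and EGFP driven by the constitutive EF1A promoter (MYCL). NCI-H660, a neuroendocrine prostate cancer line, received either a non-targeting shRNA (shCtrl) or shRNA against MYCL (shMYCL). Each group had 2 libraries. The series text describes the knockdown vector as adenoviral, whereas the sample labels describe cells taken once a stable state was reached, so whether the knockdown was transient is not settled here. Viral delivery is shared by all 4 groups, and the controls carry a vector as well. The labels call the C4-2B control libraries biological replicates and the others replicates only, with no word on separate cultures, so p-values measure the spread between these libraries, which may be technical.

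Semaphorins are secreted or membrane-bound ligands whose main receptors are the plexins. Most secreted class 3 semaphorins also need a neuropilin (NRP1 or NRP2) as co-receptor, and plexins pass the signal to small GTPases that control the actin cytoskeleton and integrin adhesion. Netrins bind DCC, which mediates attraction, and the UNC5 receptors, which mediate repulsion, and both receptor types can promote apoptosis when no netrin is bound. Slits bind Robo receptors and repel axons and migrating cells. All of these families were first described in the growing nervous system and also act in vessels, epithelia and tumors, where they affect migration and adhesion.

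MYC family proteins bind DNA with MAX, and their preferred site is the E-box CACGTG, which reads the same on both strands. The promoter sequences are shown for this reason. A RefSeq promoter table (GRCh38.p14, windows from 250 bases before to 50 bases after a transcript start) held 63 windows for 37 of the 44 members, with no entry for SEMA3A, SEMA6A, SEMA6B, NTN1, NRP1, UNC5B and UNC5D. CACGTG was present in 3 of the 63 windows (4.76%) and in 2548 of all 35116 windows (7.26%), overlaps with other motifs not being considered. A match is a description of the letters and not a binding site. The windows that held it belonged to SEMA3E, SEMA6D and SEMA4D. In the 250 bases before the start printed here, 5′ to 3′ in gene orientation, the E-box is in capitals and begins 45, 28 and 50 bases before the start, respectively. The windows lie at chr7:83649140-83649389 on the minus strand, chr15:47183839-47184088 on the plus strand and chr9:89495657-89495906 on the minus strand. None overlaps an annotated exon in GENCODE 44, and that of SEMA4D lies inside the annotated SEMA4D gene.
SEMA3E: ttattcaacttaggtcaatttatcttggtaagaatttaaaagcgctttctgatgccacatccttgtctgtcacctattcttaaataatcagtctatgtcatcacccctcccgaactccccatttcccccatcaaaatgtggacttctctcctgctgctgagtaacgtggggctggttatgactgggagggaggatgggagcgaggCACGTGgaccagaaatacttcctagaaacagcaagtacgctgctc
SEMA6D: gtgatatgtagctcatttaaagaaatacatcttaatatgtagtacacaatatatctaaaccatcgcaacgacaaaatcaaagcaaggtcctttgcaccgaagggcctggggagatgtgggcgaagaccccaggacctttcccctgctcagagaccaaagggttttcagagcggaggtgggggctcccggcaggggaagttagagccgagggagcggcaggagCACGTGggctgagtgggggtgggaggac
SEMA4D: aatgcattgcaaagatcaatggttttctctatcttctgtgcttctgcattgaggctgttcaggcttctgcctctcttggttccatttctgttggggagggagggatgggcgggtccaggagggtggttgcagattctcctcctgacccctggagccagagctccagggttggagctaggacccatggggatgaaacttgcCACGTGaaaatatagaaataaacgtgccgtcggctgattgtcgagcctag

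Library totals ranged from 15177071 to 32344170 counts, with mitochondrial genes taking 9.63% to 10.7% of counts in C4-2B and 3.50% to 3.83% in NCI-H660. MYCL itself had 371 and 320 counts in C4-2B control and 65524 and 70253 in C4-2B MYCL libraries, and 1863 and 1602 in shCtrl against 165 and 198 in shMYCL libraries, as the labels state. The cell lines were checked against markers of their labelled types, in TPM (a level that takes account of gene length). The luminal prostate marker KLK3 stood at 1257 and 1267 TPM in C4-2B control, at 825 and 749.8 TPM in C4-2B MYCL and at 0 TPM in all 4 NCI-H660 libraries. HOXB13 stood at 97.4 and 91.2 TPM in C4-2B control, at 85.5 and 79.2 TPM in C4-2B MYCL and at 0.0304 TPM or less in NCI-H660, whereas FOXA1 was present in both lines, at 94.0 and 94.9 TPM in C4-2B control and 144 and 121 TPM in shCtrl. Of the neuroendocrine markers, INSM1 stood at 0 TPM in all C4-2B libraries, at 37.1 and 35.4 TPM in shCtrl and at 22.3 and 24.2 TPM in shMYCL, and CHGA at 0.276 TPM or less in C4-2B, 126 and 124 TPM in shCtrl and 112 and 122 TPM in shMYCL. SYP was at 1.07 TPM or less in C4-2B and at 66.2 TPM or more in NCI-H660, and DLL3 at 5.87 to 6.50 TPM in C4-2B, 22.4 and 23.0 TPM in shCtrl and 15.6 and 16.5 TPM in shMYCL. The 5 endothelial markers summed to 1.16 to 1.48 TPM in C4-2B, 9.21 to 9.83 TPM in shCtrl and 3.92 to 5.99 TPM in shMYCL, with ERG the highest of them in NCI-H660, and the 5 fibroblast markers to 2.74 to 4.84 TPM over all libraries. The leukocyte list summed to 8.86 to 11.4 TPM in C4-2B control and 24.1 to 26.02 TPM in C4-2B MYCL, nearly all of it CD68, which tumor cells also express, and to 0.563 TPM or less in NCI-H660. The part of these markers in the results on the guidance genes was not tested.

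Guidance receptors and ligands were far more abundant in NCI-H660 than in C4-2B cells. The 19 receptors summed to 56.7 ± 4.67 TPM in C4-2B control and 242.7 ± 5.00 TPM in shCtrl, and the 25 ligands to 65.2 ± 4.803 and 190.1 ± 6.28 TPM (SD, n = 2). At least 1 TPM was reached by 18 members in C4-2B control and by 31 in shCtrl. The TPM scale itself differed between the lines, the median change over all genes tested on log2(TPM + 1) being 0.52 in shCtrl against C4-2B control. SEMA5A, SLIT3 and UNC5D had 0 counts in all 8 libraries, and PLXNA4, a co-receptor for class 3 semaphorins, had 0 to 3, so none of these 4 was tested.

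In C4-2B control the most abundant members were PLXNB2, the receptor of SEMA4C, at 27.5 ± 1.53 TPM, and SEMA3C, a secreted semaphorin, at 21.7 ± 0.141 TPM (SD, n = 2). SEMA4A (10.5 ± 0.996 TPM), SEMA3F (8.52 ± 2.07 TPM), SEMA4B (6.59 ± 0.383 TPM) and NRP1 (5.61 ± 0.591 TPM) followed, and SEMA4A and SEMA3F did not differ beyond their spread. In shCtrl the order was led by ROBO1, the main Slit receptor, at 64.0 ± 8.81 TPM, and by SEMA4B, a membrane-bound semaphorin, at 50.9 ± 8.02 TPM. Their libraries came close to each other, the lower ROBO1 library standing at 57.7 TPM and the higher SEMA4B library at 56.6 TPM. PLXNB2 came next at 36.6 ± 2.42 TPM, then PLXNB1, the receptor of SEMA4D, at 27.8 ± 1.96, SEMA4C at 26.8 ± 0.0955 and PLXNA2 at 21.6 ± 2.29 TPM. PLXNB2 also ranked first in C4-2B MYCL, at 23.2 ± 2.18 TPM, and ROBO1 in shMYCL, at 45.8 ± 1.45 TPM.

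Summed by family, the class 3 semaphorins, which are secreted, differed between the lines by less than their spread, at 36.5 ± 2.29 TPM in C4-2B control and 34.5 ± 0.818 TPM in shCtrl (SD, n = 2). Single class 3 genes differed in opposite directions, 3 of 7 being called as higher and 2 as lower in shCtrl in the test given below. SEMA3A stood at 0.0099 ± 0.0140 against 9.74 ± 0.732 TPM and SEMA3C at 21.7 ± 0.141 against 5.82 ± 1.30 TPM. The membrane-bound class 4 semaphorins summed to 26.8 ± 2.15 and 102 ± 8.79 TPM, class 6 to 1.01 ± 0.297 and 17.2 ± 0.724 TPM, and the Slits to 0.0382 ± 0.0104 and 21.7 ± 3.61 TPM. On the receptor side the plexins summed to 42.5 ± 2.82 and 122 ± 3.60 TPM, the neuropilins to 5.66 ± 0.627 and 32.4 ± 2.63 TPM, the netrin receptors to 2.58 ± 0.694 and 20.7 ± 3.55 TPM and the Robo receptors to 5.90 ± 0.531 and 67.3 ± 9.51 TPM. With added MYCL the class 6 sum in C4-2B was 4.54 ± 0.534 TPM, most of it SEMA6B, and the Robo sum was 10.9 ± 0.673 TPM, most of it ROBO3. In shMYCL the class 4 sum was 83.3 ± 1.21 TPM and the Robo sum 51.8 ± 1.75 TPM.

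Several members were called in neither MYCL comparison. SEMA4D, the ligand of PLXNB1, stood at 4.91 ± 0.289 TPM in C4-2B control and 16.3 ± 0.457 TPM in shCtrl, and SEMA4F, another class 4 semaphorin, at 2.04 ± 0.289 and 6.44 ± 1.09 TPM. The glycolipid-anchored SEMA7A, which binds integrins and PLXNC1, stood at 0.835 ± 0.0632 and 1.16 ± 0.394 TPM, and PLXNC1 at 0.166 ± 0.0406 and 0.366 ± 0.155 TPM. SEMA3B stood at 3.58 ± 0.268 and 5.04 ± 0.385 TPM, SEMA3D at 0.0378 ± 0.0221 and 0.823 ± 0.0815 TPM, and NTN4, a netrin of basement membranes, at 0.0091 ± 0.0129 and 1.07 ± 0.0751 TPM (SD, n = 2 throughout).

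**Figure D1:**
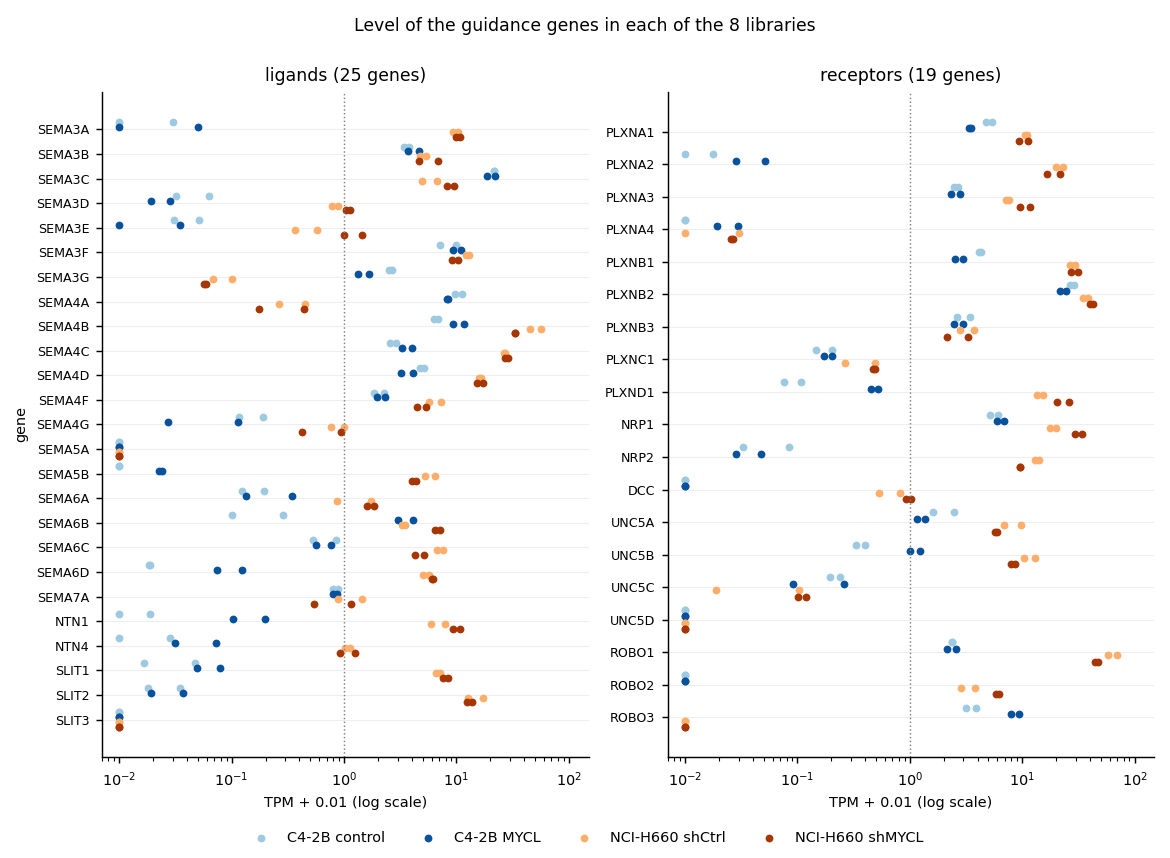
Level of each guidance gene in TPM, offset by 0.01 and on a log scale, for 25 ligands (left) and 19 receptors (right), with 1 point for each of the 8 libraries and the dotted line at 1 TPM. The NCI-H660 points (orange and brown) lie to the right of the C4-2B points (blue) for most genes, and the points at the left edge are libraries with 0 TPM.

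The comparison of MYCL with control in C4-2B cells addressed which guidance genes change when MYCL is raised in adenocarcinoma cells. Of the 27 members with enough counts for the test, 7 rose and 1 fell. A gene was called at an edgeR adjusted p under 0.05 and a log2 fold change of 0.5 or more in either direction. The rising members were SEMA4B, SEMA4C, SEMA6B and NTN1 among 14 tested ligands, and PLXND1, UNC5B and ROBO3 among 13 tested receptors, and the falling member was the ligand SEMA3G. In C4-2B, 19.9% of all 16866 genes tested were called, 11.8% as higher and 8.12% as lower, against 29.6% of the tested members called, 25.9% as higher and 3.70% as lower. The median log2 fold change was 0.21 over the tested ligands, -0.02 over the tested receptors and -0.002 over all genes tested. By limma on log2(TPM + 1), with the median over all genes itself at -0.14, the called members were 3 higher and 0 lower of 19 tested. Beside them, 1006 of all 14174 genes were called as higher and 1997 as lower, in all a larger share than of the members. On log2(TPM + 0.1) they were 3 higher and 2 lower, the lower being PLXNA1 and PLXNB1, beside 1017 and 2141 genes.

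SEMA6B (Ensembl ENSG00000167680, chr19:4542593-4581776, minus strand), a transmembrane ligand of A-type plexins, had 0.277 and 0.63 CPM in control and 8.68 and 13.0 CPM in MYCL libraries, where CPM denotes counts relative to the library total after TMM scaling within the cell line. The groups were far apart (log2 fold change 4.63, SE 0.38, adjusted p = 7.39e-05), although the control value rests on 9 and 15 counts. NTN1 (ENSG00000065320, chr17:9021510-9244000, plus strand), the prototype netrin, was counted 0 and 1 times in control and 18 and 9 times in MYCL libraries. Its values were thus 0 and 0.042 CPM against 0.976 and 0.515 CPM, all low (log2 fold change 5.01, SE 1.02, adjusted p = 0.00539). The pooled ratio was 42.3, with a 95% exact counting interval of 6.98 to 1734 that covers counting error only. SEMA4B (ENSG00000185033, chr15:90160604-90229679, plus strand) had 18.9 and 20.3 CPM in control and 36.9 and 31.5 CPM in MYCL libraries (log2 fold change 0.81, SE 0.11, adjusted p = 0.000664). SEMA4C, a ligand of PLXNB2, had 7.22 and 8.11 against 11.99 and 10.7 CPM (log2 fold change 0.57, SE 0.15, adjusted p = 0.0183). In all 4 of these ligands both MYCL libraries lay above both control libraries, as also in SEMA3B, SEMA3F and SEMA7A, which were not called. The reverse held for SEMA3G, a secreted semaphorin that signals through NRP2, which had 10.1 and 10.1 CPM in control and 7.10 and 6.01 CPM in MYCL libraries (log2 fold change -0.62, SE 0.16, adjusted p = 0.016). It also held for SEMA4A and SEMA4D, which were not called. How often the groups separate in this way over all genes was not counted.

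Among the receptors, PLXND1 (ENSG00000004399, chr3:129555214-129606676, minus strand), which binds SEMA3E directly, had 0.369 and 0.546 CPM in control and 2.98 and 2.86 CPM in MYCL libraries (log2 fold change 2.68, SE 0.40, adjusted p = 0.0012). UNC5B (ENSG00000107731, chr10:71212570-71302864, plus strand), a netrin receptor known from blood vessels, had 1.81 and 2.18 CPM in control and 5.91 and 7.84 CPM in MYCL libraries (log2 fold change 1.78, SE 0.26, adjusted p = 0.00109). ROBO3 (ENSG00000154134, chr11:124865432-124881471, plus strand), the divergent Robo receptor that governs midline crossing of axons, had 5.69 and 6.38 against 14.8 and 19.2 CPM (log2 fold change 1.498, SE 0.16, adjusted p = 0.000268). The groups did not overlap for any of the 3, nor did they for PLXNA1, PLXNB1, PLXNB2 and UNC5A, which were not called. PLXND1 and UNC5B stayed near 1 TPM or less, at 0.477 ± 0.0483 and 1.11 ± 0.163 TPM in MYCL libraries (SD, n = 2), whereas ROBO3 reached 8.57 ± 0.987 TPM. The receptors PLXNA1 and PLXNB1 had adjusted p-values under 0.05 but changes smaller than the minimum (-0.42 and -0.47 on the log2 scale). The most abundant member, PLXNB2, had 139 and 149 CPM in control and 137 and 129.998 CPM in MYCL libraries, a change of -0.11 on the log2 scale (SE 0.07) that was not called. The 19 tested members without a call had log2 fold changes from -0.53 to 0.82.

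The SEMA4B, SEMA6B, PLXND1, UNC5B and ROBO3 calls remained whichever library was left out. SEMA6B and NTN1 were not tested, however, when at least 10 counts were required in every library. Without control replicate 1, 3 calls were lost: SEMA3G at -0.63 (adjusted p = 0.0601), SEMA4C at 0.48 (adjusted p = 0.119) and NTN1 at 3.96 (adjusted p = 0.0524). Without MYCL replicate 1, SEMA4C fell short of the minimum fold change at 0.49 (adjusted p = 0.0449), and NTN1 had too few counts to be tested. New calls were PLXNA1 at -0.52 (adjusted p = 0.00488), PLXNB1 at -0.52 (adjusted p = 0.012) and UNC5A at -0.83 (adjusted p = 0.0395) without control replicate 1, SEMA3F at 0.65 (adjusted p = 0.0012) without control replicate 2, and PLXNB1 at -0.55 (adjusted p = 0.00258) without MYCL replicate 1. Among the 17 members not tested, SEMA6D had 1 and 1 counts without and 6 and 6 with added MYCL, a pooled ratio of 9.41 (95% exact counting interval 2.10 to 86.6). PLXNA2 had 0 and 1 against 5 and 2 counts, a pooled ratio of 10.98 (1.41 to 495). The intervals of SEMA3D, SEMA3E, NTN4 and SLIT2 included 1.

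The comparison of shMYCL with shCtrl in NCI-H660 cells addressed the reverse question, which guidance genes change when MYCL is lowered in neuroendocrine cells. Of 37 tested members, 8 rose and 6 fell. The rising members were SEMA3C, SEMA3E, SEMA6A, SEMA6B and NTN1 among 22 tested ligands, and PLXND1, NRP1 and ROBO2 among 15 tested receptors. The falling members were the ligands SEMA3F, SEMA4B and SEMA5B and the receptors NRP2, UNC5A and UNC5B. In this comparison 16.2% of all 16980 genes tested were called, 7.18% as higher and 8.99% as lower, against 37.8% of the tested members, 21.6% as higher and 16.2% as lower. The median log2 fold change was 0.05 over the tested ligands, 0.09 over the tested receptors and -0.003 over all genes tested. On log2(TPM + 1), 3 of 32 tested members were called as higher and 1 as lower, beside 786 and 916 of all 16093 genes. Centred on each library's median, 4 and 1 were called, beside 759 and 933 genes. DESeq2 called 10, of which 7 were higher and 3 lower, beside 2060 of all 16980 genes. It no longer called SEMA3F (adjusted p = 0.0437, under the minimum fold change), SEMA5B (adjusted p = 0.118), SEMA6A (adjusted p = 0.108) and UNC5A (adjusted p = 0.116).

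SEMA3E (ENSG00000170381, chr7:83363238-83649139, minus strand), a repulsive cue for vessels and among the 3 members with an E-box in its promoter window, had the largest change of the 14, from 0.885 and 1.08 CPM in shCtrl to 3.16 and 4.15 CPM in shMYCL libraries (log2 fold change 1.88, SE 0.39, adjusted p = 0.00234). Its level stayed low, at 1.21 ± 0.316 TPM in shMYCL (SD, n = 2). SEMA6B had 6.14 and 7.95 CPM in shCtrl and 14.7 and 15.1 CPM in shMYCL libraries (log2 fold change 1.07, SE 0.18, adjusted p = 0.000512). The class 6 semaphorin SEMA6A, a transmembrane ligand of PLXNA2 and PLXNA4, had 3.19 and 4.55 against 6.45 and 6.71 CPM (log2 fold change 0.76, SE 0.25, adjusted p = 0.0379). In each of these 3, both shMYCL libraries were above both shCtrl libraries. The same held for the ligands SEMA3D, SEMA6D and SLIT1 and the receptors PLXNA3, PLXNB2, PLXNC1 and DCC, none of which was called. How often the groups separate in this way over all genes was not counted. SEMA3C had 19.2 and 13.8 CPM in shCtrl and 23.7 and 25.998 CPM in shMYCL (log2 fold change 0.59, SE 0.16, adjusted p = 0.0115), and NTN1 had 20.6 and 29.4 against 33.3 and 37.8 CPM (log2 fold change 0.51, SE 0.15, adjusted p = 0.0245). The 2 shCtrl libraries differed from each other in both genes, with replicate 2 the lower for SEMA3C and the higher for NTN1.

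Among the falling ligands, SEMA4B had 95.9 and 128 CPM in shCtrl and 72.5 and 72.7 CPM in shMYCL libraries (log2 fold change -0.62, SE 0.13, adjusted p = 0.00221), with shCtrl replicate 2 well above the other 3 libraries. SEMA3F, which signals through NRP2, had 23.0 and 25.5 against 16.5 and 17.8 CPM, a log2 fold change of -0.50, at the edge of the minimum. SEMA5B, a transmembrane semaphorin, had 14.2 and 18.8 against 12.1 and 11.1 CPM, a log2 fold change of -0.51. Neither of these last groups overlapped, but both genes were called by a narrow margin. The groups of SEMA4F and SEMA6C, which also fell, did not overlap either, and neither gene was called.

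The neuropilins moved in opposite directions. NRP1, the co-receptor for SEMA3A and also for VEGF-A, had 50.04 and 47.3 CPM in shCtrl and 72.6 and 78.4 CPM in shMYCL libraries (log2 fold change 0.63, SE 0.11, adjusted p = 0.000676). NRP2, the co-receptor for SEMA3F, had 49.6 and 46.5 against 34.3 and 31.9 CPM (log2 fold change -0.54, SE 0.12, adjusted p = 0.00362). So NRP2 and its ligand SEMA3F both fell, while SEMA3A, the main ligand of NRP1, had 29.3 and 24.7 against 27.3 and 28.9 CPM and was not called. NRP1 shares 4.87% of its exonic bases with an antisense long non-coding gene, and whether the counts are strand-specific is not given in the sources used here. PLXND1 had 52.8 and 64.8 CPM in shCtrl and 102 and 81.5 CPM in shMYCL (log2 fold change 0.64, SE 0.13, adjusted p = 0.00219), in the same direction as its ligand SEMA3E.

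Of the netrin receptors, UNC5B had 40.5 and 55.1 CPM in shCtrl and 35.1 and 31.3 CPM in shMYCL libraries (log2 fold change -0.53, SE 0.14, adjusted p = 0.0136). UNC5A, a repulsive netrin receptor of neurons, had 14.4 and 21.6 against 12.2 and 12.8 CPM (log2 fold change -0.52, SE 0.18, adjusted p = 0.0437). For both, shCtrl replicate 2 was the highest library and the groups did not overlap. Nor did those of ROBO1 and PLXNA2, which were lower in shMYCL but not called. DCC, the attractive netrin receptor, was not called at 4.07 and 3.36 against 5.59 and 4.28 CPM (log2 fold change 0.41, SE 0.27, adjusted p = 0.297). The Robo receptor ROBO2 (ENSG00000185008, chr3:75906695-77649964, plus strand) had 14.8 and 11.3 CPM in shCtrl and 24.5 and 21.97 CPM in shMYCL libraries (log2 fold change 0.84, SE 0.15, adjusted p = 0.00114). ROBO1, the most abundant member, had 274 and 234 CPM in shCtrl and 185 and 178 CPM in shMYCL, a log2 fold change of -0.49 (SE 0.11, adjusted p = 0.00437) just under the minimum. ROBO1 and ROBO2 thus lay on opposite sides of 0, and only ROBO2 was called. Neither tested Slit was called, SLIT1 at 28.1 and 29.9 against 31.4 and 31.0 CPM and SLIT2 at 65.0 and 50.1 against 53.0 and 46.6 CPM. SEMA6C (-0.49) and PLXNA3 (0.44) also had adjusted p-values under 0.05 with log2 fold changes under the minimum.

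**Figure D2:**
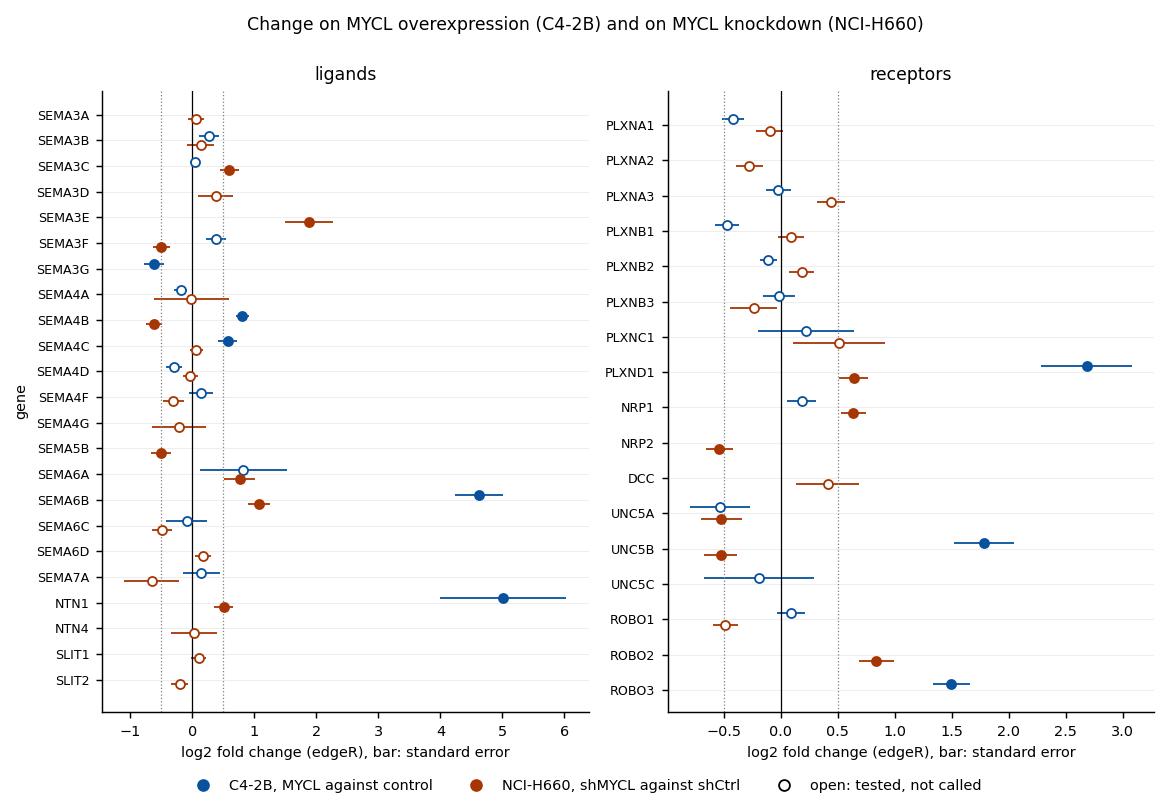
Log2 fold change with its standard error for each tested ligand (left) and receptor (right), in blue for MYCL against control in C4-2B and in brown for shMYCL against shCtrl in NCI-H660, with filled points for called genes and dotted lines at the minimum of 0.5 in either direction. SEMA6B, NTN1 and PLXND1 are filled on the right of 0 in both colors, and SEMA4B and UNC5B are on opposite sides of 0.

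Only SEMA3E, SEMA6B, NRP1 and ROBO2 of the 14 calls in NCI-H660 remained whichever library was left out. Without shMYCL replicate 2 the count of calls was 7, against 14 with all libraries. The calls lost then were SEMA3C at 0.53 (adjusted p = 0.061), SEMA3F at -0.56 (adjusted p = 0.0526), SEMA5B at -0.44 (adjusted p = 0.185), SEMA6A at 0.74 (adjusted p = 0.112), NTN1 at 0.41 (adjusted p = 0.138), NRP2 at -0.49 (adjusted p = 0.0643), UNC5A at -0.56 (adjusted p = 0.073) and UNC5B at -0.45 (adjusted p = 0.0946), while PLXNA3 was gained at 0.57 (adjusted p = 0.0168). Without shCtrl replicate 2, the losses were SEMA3C at 0.37 (adjusted p = 0.0408), SEMA3F at -0.42 (adjusted p = 0.0198), SEMA4B at -0.40 (adjusted p = 0.00409), SEMA5B at -0.29 (adjusted p = 0.224), UNC5A at -0.20 (adjusted p = 0.412) and UNC5B at -0.29 (adjusted p = 0.0808), and SEMA6C at -0.51 (adjusted p = 0.0165) and ROBO1 at -0.60 (adjusted p = 1.97e-05) were gained. Leaving out shCtrl replicate 1 ended the calls of SEMA6A at 0.54 (adjusted p = 0.164), NTN1 at 0.28 (adjusted p = 0.126) and NRP2 at -0.49 (adjusted p = 0.00535). Leaving out shMYCL replicate 1 ended those of SEMA3F at -0.44 (adjusted p = 0.14), SEMA5B at -0.56 (adjusted p = 0.0792), SEMA6A at 0.80 (adjusted p = 0.0754), PLXND1 at 0.48 (adjusted p = 0.0409) and UNC5A at -0.48 (adjusted p = 0.131), with ROBO1 gained at -0.50 (adjusted p = 0.0227). No direction changed in these fits.

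**Figure D3:**
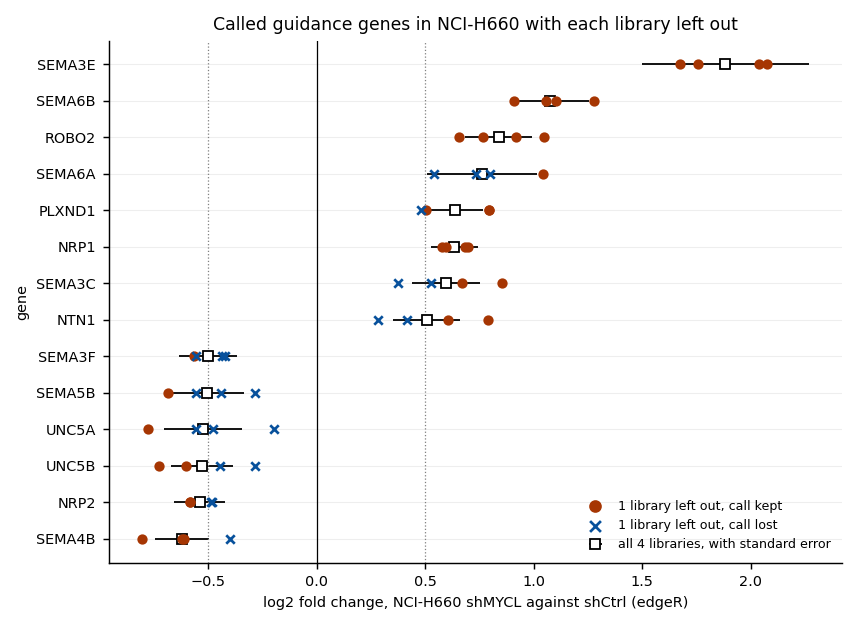
Log2 fold change of the 14 members called in NCI-H660, with all 4 libraries (open squares, bars show the standard error) and after removal of 1 library at a time (circles where the call was kept, crosses where it was lost). SEMA3E, SEMA6B, ROBO2 and NRP1 carry circles only, and all points of a gene lie on the same side of 0.

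A set of 5 genes was called in both cell lines, out of 24 members tested in both, which is 62.5% of the C4-2B calls and 35.7% of the NCI-H660 calls. These are 20.8% of the members tested in both lines, where 4.19% of all 14212 genes tested in both were called in both. SEMA4B and UNC5B followed MYCL: both rose when MYCL was raised in C4-2B and fell when it was lowered in NCI-H660. SEMA6B, NTN1 and PLXND1 rose in both settings, that is, with more MYCL in C4-2B and with less MYCL in NCI-H660. Over all genes tested in both lines, 1.80% rose with added MYCL and fell with the knockdown, against 8.33% of the members, and 0.929% rose in both, against 12.5% of the members. These 3 had between 0 and 15 counts in each C4-2B control library and were expressed in shCtrl, at 3.39 ± 0.128, 6.96 ± 1.43 and 14.4 ± 1.11 TPM (SD, n = 2). In NCI-H660, NTN1 and UNC5B were not called by limma on log2(TPM + 1), at a log2 change of 0.47 (adjusted p = 0.118) and -0.46 (adjusted p = 0.0977), while SEMA4B, SEMA6B and PLXND1 were. Of the 5, only SEMA6B kept its call in both lines whichever library was left out. The left-out log2 fold changes in NCI-H660 ranged from -0.81 to -0.40 for SEMA4B and -0.73 to -0.29 for UNC5B. They ranged from 0.28 to 0.79 for NTN1, 0.48 to 0.79 for PLXND1 and 0.91 to 1.28 for SEMA6B.

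**Figure D4:**
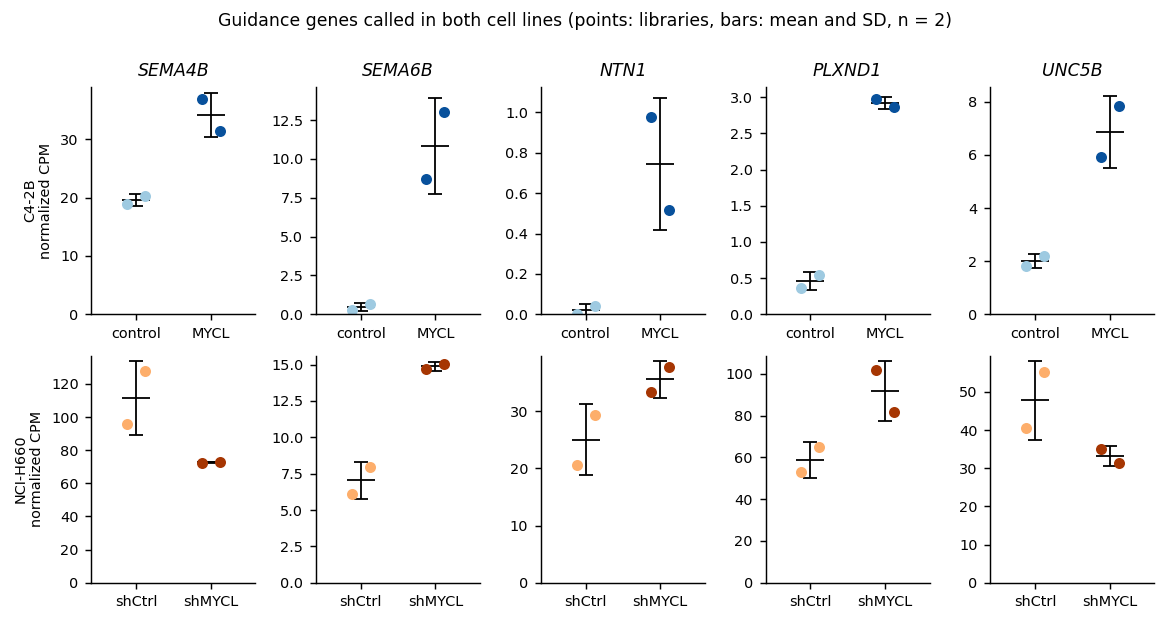
Normalized CPM of the 5 genes called in both cell lines, in C4-2B (top) and NCI-H660 (bottom), with a point for each library and bars for the mean and SD (n = 2), on linear axes that start at 0 and differ between panels. SEMA6B, NTN1 and PLXND1 are higher in the right-hand group of both rows, whereas SEMA4B and UNC5B are higher on the right in C4-2B and lower on the right in NCI-H660.

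Whether the effect of high against low MYCL differed between the lines was tested by an interaction contrast over the 4 groups, the C4-2B change (MYCL minus control) minus the NCI-H660 change (shCtrl minus shMYCL). Of 40 tested members, 8 had a higher and 2 a lower effect in C4-2B. Over all 19605 genes tested, 17.9% were called, 9.59% as higher and 8.33% as lower, and over the tested members 25%, 20% and 5%. The median was 0.12 over the ligands, 0.42 over the receptors and 0.003 over all genes, on the log2 scale. The receptor median and the 40 tested members include DCC, ROBO2 and ROBO3, for which the count fit gives no usable estimate. On log2(TPM + 1) 4 of 35 tested members were called as higher and 0 as lower, namely SEMA6B, PLXND1, NRP1 and ROBO3. Over all 17847 genes, 1054 were called as higher and 1902 as lower, in all a larger share than of the members. Cell line, vector type and the direction in which MYCL was changed cannot be told apart in this test.

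The differences with the largest sizes were those of SEMA6B (log2 difference 5.71, SE 0.43, adjusted p = 4.9e-06), NTN1 (5.497, SE 0.89, adjusted p = 0.00104) and PLXND1 (3.34, SE 0.35, adjusted p = 5.76e-05), the 3 genes that rose in both settings. SEMA6D, a transmembrane ligand of PLXNA1, differed by 3.20 (SE 0.66, adjusted p = 0.00465), a value that rests on 1 and 1 counts in C4-2B control and 6 and 6 in C4-2B MYCL libraries. With at least 10 counts required in every library, SEMA6B, NTN1 and SEMA6D were not tested. UNC5B went the same way with MYCL in both lines, and its effect was larger in C4-2B by 1.26 (SE 0.28, adjusted p = 0.00679). For SEMA4B the difference was 0.18 (SE 0.18, adjusted p = 0.546), which was not called.

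The remaining called differences were smaller. They were NRP1 at 0.82 (SE 0.17, adjusted p = 0.00453), SEMA3C at 0.64 (SE 0.18, adjusted p = 0.0266), SEMA4C at 0.63 (SE 0.16, adjusted p = 0.0154), PLXNA1 at -0.52 (SE 0.16, adjusted p = 0.0374) and UNC5A at -1.05 (SE 0.34, adjusted p = 0.0429). SEMA6B, SEMA6D, NTN1, PLXND1, NRP1 and UNC5B were called whichever of the 8 libraries was left out. By limma on log2(TPM + 1), of the 10 genes only SEMA6B, PLXND1 and NRP1 were called, while UNC5B was at 0.17 (adjusted p = 0.586) and NTN1 at 0.66 (adjusted p = 0.0894), and SEMA6D was not called either. UNC5A was called in 2 of those 8 fits, SEMA3C and PLXNA1 in 3 and SEMA4C in 5. Without NCI-H660 shMYCL replicate 2 the losses were SEMA3C at 0.56 (adjusted p = 0.111), SEMA4C at 0.57 (adjusted p = 0.0664), PLXNA1 at -0.40 (adjusted p = 0.148) and UNC5A at -1.10 (adjusted p = 0.0899). The same 4 genes were lost without C4-2B MYCL replicate 1, at 0.58 (adjusted p = 0.0726), 0.57 (adjusted p = 0.0626), -0.48 (adjusted p = 0.11) and -1.10 (adjusted p = 0.0836). SEMA3C was also lost without either C4-2B control library or shCtrl replicate 2, at 0.64 (adjusted p = 0.068) without control replicate 1, 0.64 (adjusted p = 0.0666) without control replicate 2 and 0.40 (adjusted p = 0.0886) without shCtrl replicate 2. SEMA4C was lost without control replicate 1, at 0.54 (adjusted p = 0.0986). PLXNA1 was lost without control replicate 2 at -0.42 (adjusted p = 0.158), C4-2B MYCL replicate 2 at -0.53 (adjusted p = 0.0804) and shCtrl replicate 2 at -0.46 (adjusted p = 0.0866). UNC5A was lost in the same 3 fits, at -0.71 (adjusted p = 0.182), -0.98 (adjusted p = 0.118) and -0.75 (adjusted p = 0.155), and without shMYCL replicate 1 at -1.03 (adjusted p = 0.113). Calls were gained by SLIT1 at 3.12 (adjusted p = 0.0373) without C4-2B control replicate 1, SEMA6A at 2.27 (adjusted p = 0.0193) without C4-2B MYCL replicate 2 and ROBO1 at -0.52 (adjusted p = 0.0233) without shCtrl replicate 2. DCC, ROBO2 and ROBO3 had 0 counts in every library of a line, so the count fit gives no interaction estimate for them. The call of ROBO3 on log2(TPM + 1), at 1.08 (adjusted p = 0.0162), sets its change in C4-2B against levels of 0 in NCI-H660.

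Between the control groups of the lines, NCI-H660 shCtrl against C4-2B control, 29 of 40 tested members were higher and 5 were lower in NCI-H660. These groups differ in cell line and in vector, which cannot be told apart. The background is large here, since 69.8% of the 19605 genes tested were called, 36.5% as higher and 33.3% as lower, compared with 85.0% of the tested members, 72.5% as higher and 12.5% as lower. The median log2 fold change was 2.72 over the tested ligands, 1.46 over the tested receptors and 0.03 over all genes. With at least 10 counts required in every library, 14 of 20 tested members were called, beside 8512 of all 12771 genes tested. On log2(TPM + 1) the median change over all genes tested was 0.52. After centring each library on its median, 21 of 35 tested members were called as higher and 5 as lower. Over all 17847 genes, 4837 and 7026 were then called, and the median change was -0.22, so centring did not bring it to 0. The higher members included all tested class 5 and class 6 semaphorins, netrins and Slits and both neuropilins, class 5 being SEMA5B alone. SEMA5B, SEMA6D, both netrins, both tested Slits and NRP2 had 8 counts or fewer in each C4-2B control library. They passed the filter through the NCI-H660 libraries, so only a call as higher was open to them. With at least 10 counts required in every library, only SEMA6C and NRP1 of these families were called.

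The netrin and Slit ligands were nearly silent in C4-2B control. NTN1 had 0 and 1 counts there and 349 and 543 in shCtrl libraries, with a pooled ratio of 1269 (95% exact counting interval 227 to 50166). SLIT1 had 8 and 1 against 477 and 553 counts, and SLIT2 1 and 3 against 1102 and 925. Their receptors showed a mixed picture. ROBO1 stood at 2.37 and 2.38 TPM in C4-2B control and at 70.2 and 57.7 TPM in shCtrl (log2 fold change 4.10, SE 0.11, adjusted p = 1.51e-12). ROBO2 had 0 counts in every C4-2B library and 250 and 209 in shCtrl, at least 218-fold higher against a floor of 3 counts over the group. DCC likewise had 0 counts in every C4-2B library and 69 and 62 in shCtrl, at least 62.1-fold higher. ROBO3 was the reverse, with 185 and 152 counts in C4-2B control and 0 in all 4 NCI-H660 libraries, at least 79.0-fold lower in NCI-H660. UNC5B stood at 0.324 and 0.393 TPM in C4-2B control and at 10.5 and 13.0 TPM in shCtrl (log2 fold change 4.43, SE 0.20, adjusted p = 1.67e-10). UNC5C, another repulsive netrin receptor, was low in both lines, at 0.185 and 0.228 against 0.0936 and 0.00898 TPM (log2 fold change -2.65, SE 0.72, adjusted p = 0.00432).

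On the semaphorin side, PLXNA2 had 0 and 1 counts in C4-2B control and 1923 and 1847 in shCtrl libraries, a pooled ratio of 5362 (95% exact counting interval 962 to 211845). PLXND1 stood at 0.0652 and 0.0971 against 13.6 and 15.2 TPM (log2 fold change 6.87, SE 0.22, adjusted p = 5.9e-12), and NRP2 at 0.0226 and 0.0735 against 14.2 and 13.0 TPM (log2 fold change 8.02, SE 0.22, adjusted p = 1.36e-12). Each of these receptors was near or under 0.1 TPM in C4-2B control and over 10 TPM in shCtrl. The B-type plexins were expressed in both lines: PLXNB1 was higher in shCtrl (log2 fold change 2.14, SE 0.11, adjusted p = 8.14e-10), while PLXNB2 (log2 fold change -0.20) and PLXNB3 (-0.44) were not called. PLXNB3 shares 20.4% of its exonic bases with SRPK3 on the same strand. Among the ligands, SEMA5B had 0 counts in C4-2B control and 240 and 347 in shCtrl, at least 278-fold higher. SEMA6D had 1 and 1 counts against 330 and 334, and SEMA3A 3 and 0 against 497 and 456. SEMA4B was present in both lines, at 6.32 and 6.86 against 45.3 and 56.6 TPM (log2 fold change 2.35, SE 0.13, adjusted p = 1.6e-09).

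The members lower in NCI-H660 were SEMA3C, SEMA3G and SEMA4A beside ROBO3 and UNC5C. SEMA3C stood at 21.8 and 21.6 TPM in C4-2B control and at 6.74 and 4.90 TPM in shCtrl (log2 fold change -2.53, SE 0.13, adjusted p = 7.93e-10). SEMA4A, a membrane-bound semaphorin with roles in immune cells, stood at 9.76 and 11.2 against 0.443 and 0.255 TPM (log2 fold change -5.58, SE 0.23, adjusted p = 6.44e-11), and SEMA3G at 2.52 and 2.66 against 0.0896 and 0.058 TPM (log2 fold change -5.79, SE 0.34, adjusted p = 2.62e-09). None of these groups overlapped, and in CPM neither did those of SEMA3B, PLXNB2 and PLXNB3, which were not called. SEMA3B, SEMA3F, SEMA7A and PLXNC1 were not called, at log2 fold changes of -0.22, -0.03, -0.10 and 0.36. SEMA4G was called as higher, but it shares 22.9% of its exonic bases with the antisense gene MRPL43, and without C4-2B control replicate 2 it was at 1.59 (adjusted p = 0.051). PLXNA1 was called at 0.51 and lost the call without C4-2B control replicate 1 at 0.42 (adjusted p = 0.0192), C4-2B MYCL replicate 1 at 0.50 (adjusted p = 0.00159) or shCtrl replicate 2 at 0.45 (adjusted p = 0.00869). PLXNB3 gained one without C4-2B control replicate 1 at -0.59 (adjusted p = 0.036) or shCtrl replicate 2 at -0.63 (adjusted p = 0.0319). Because C4-2B control libraries enter both this comparison and that with C4-2B MYCL, and shCtrl libraries likewise, the values of a gene across these comparisons are not independent.

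**Figure D5:**
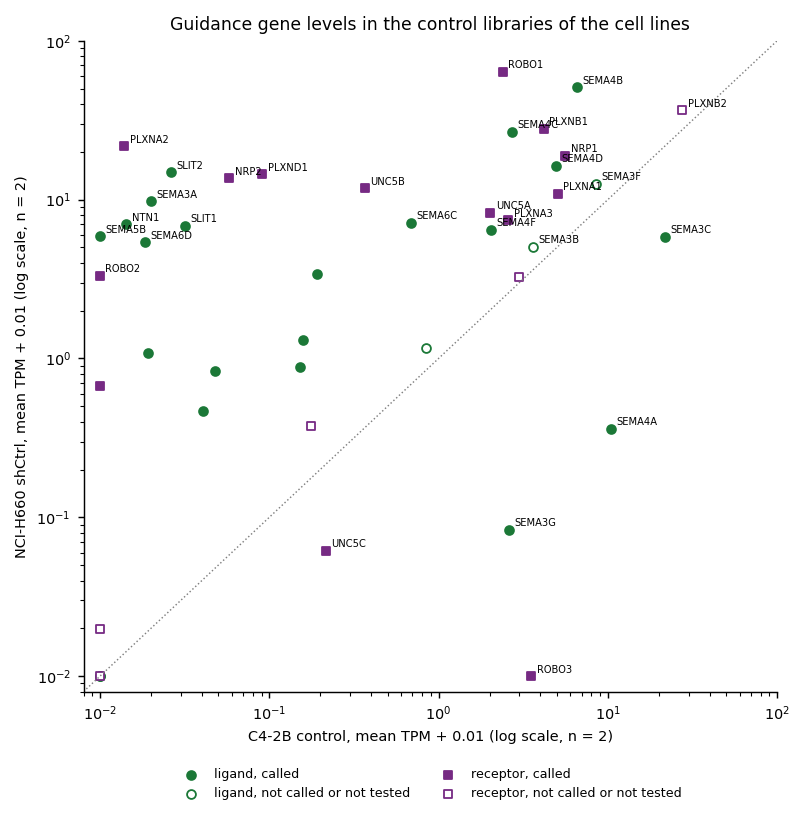
Mean TPM of each guidance gene (offset by 0.01, log scales, n = 2) in C4-2B control (x axis) and NCI-H660 shCtrl (y axis), with circles for ligands and squares for receptors, filled where called, and the dotted line marking equal levels. Most filled points lie above the line, and SEMA3C, SEMA4A, SEMA3G, UNC5C and ROBO3 lie under it.

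The wider pathway was represented by 26 partners of semaphorins and plexins and 31 of netrins and Slits. In C4-2B, 5 of 22 tested semaphorin and plexin partners rose and 1 fell, and 4 of 23 tested netrin and Slit partners rose and 2 fell, with medians of 0.15 and 0.02 on the log2 scale. In NCI-H660, 3 of 26 rose and 2 fell in the former list and 2 of 29 rose and 3 fell in the latter, with medians of -0.01 and -0.06. The called shares were 27.3% and 26.1% in C4-2B and 19.2% and 17.2% in NCI-H660, beside backgrounds of 19.9% and 16.2%. The largest changes in C4-2B were those of FYN, a Src-family kinase downstream of plexins (log2 fold change 2.35, SE 0.29, adjusted p = 0.000457), the adhesion molecule L1CAM, which partners NRP1 (2.28), and the small GTPase RRAS, a target of plexin GAP activity (1.69). On the netrin side they were NTNG1, a membrane-anchored netrin relative (log2 fold change -2.67, SE 0.27, adjusted p = 0.000172), FLRT1 (1.36) and the actin-binding protein ABLIM1 (-1.01).

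In NCI-H660 the largest were ARHGEF11, an exchange factor for small GTPases that is bound by B-type plexins (log2 fold change 0.84, SE 0.11, adjusted p = 5.03e-05), the receptor tyrosine kinase MET, which associates with B-type plexins (0.70), and DPYSL5, a relative of the collapsin response mediators (0.56). For netrins and Slits they were DSCAM, a netrin co-receptor (log2 fold change -1.59, SE 0.55, adjusted p = 0.0462), FLRT2, a ligand of UNC5 receptors (1.17), and NTNG2 (-0.86). Partners called in both lines were MET (1.19 in C4-2B and 0.70 in NCI-H660) and the Slit-binding proteoglycan GPC1 (0.66 and 0.66), which rose in both, and the actin oxidoreductase MICAL2 (0.78 and -0.55) and FLRT1 (1.36 and -0.55), which rose in C4-2B MYCL and fell in shMYCL libraries.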

How the data were processed

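RNA was sequenced from 8 libraries, 2 in each of 4 groups, after poly(A) selection with paired-end reads. Deposited by the authors were estimated counts per gene, of which 34.4% of the non-zero values were not whole, and a table of TPM for 65535 of the 78691 genes, on hg38 per the labels. The aligner, counter and strand setting are not given in the sources used here. Estimated counts were rounded to whole numbers. Genes passing filterByExpr were tested with the quasi-likelihood test of edgeR 4.0.16 (R 4.3.3) after TMM scaling, with Benjamini-Hochberg adjustment over all genes tested. A call needed an adjusted p under 0.05 with a log2 fold change of 0.5 or more in either direction. The MYCL comparisons were fitted within each cell line, and the line comparison and interaction over all 4 groups. The standard error (SE) was the log2 fold change divided by the square root of F. TPM served for levels between genes. Positions are from GENCODE 44 on GRCh38, which matched 61458 gene IDs.

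Per-library values are given for members called in either MYCL comparison and full statistics for the 12 with the largest changes in each, and the others are summarized. Partners are named where called in both lines or among the 3 largest calls. The members and lists were chosen with earlier results of these data known. On data simulated from these libraries, with 200 genes changed by 1.5 on the log2 scale, 200, 198, 198 and 191 were recovered in the C4-2B, NCI-H660, line and interaction tests. In these tests 7, 6, 9 and 9 other genes were also called. The changed genes excluded those with low counts, and all genes were given the same spread. Low-count members and changes near the minimum are therefore not covered. Replicate pairs differed by more than sampling noise, and counting intervals and floors cover counting error only. Replicate numbers did not pair libraries across groups. Alternatives were RLE scaling, other filters, DESeq2 1.42.0, limma 3.58.1 on log2(TPM + 1) and log2(TPM + 0.1), a replicate block, other fold minimums, other groups in the fit, and leaving out each library. A fit that leaves a group with 1 library assumes that it varies like the others. Subtraction of each library's median from log2(TPM + 1), called centring, was added after the data were seen. Some cell type markers on the lists are not reported here.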

Additional observations from a re-analysis of the deposited data

Results flagged for a closer look

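The effect of high against low MYCL differed between C4-2B and NCI-H660 by the interaction test (edgeR, adjusted p under 0.05) for 10 guidance genes, or 25% of the 40 tested, beside 17.9% of all genes tested, and the values are log2 differences, positive where the effect was higher in C4-2B. Among the ligands they were 5.71 for SEMA6B, 5.497 for NTN1, 3.20 for SEMA6D, 0.64 for SEMA3C and 0.63 for SEMA4C. Among the receptors they were 3.34 for PLXND1, 1.26 for UNC5B, 0.82 for NRP1, -0.52 for PLXNA1 and -1.05 for UNC5A. SEMA6B, NTN1 and PLXND1 rose with more MYCL in C4-2B and with less MYCL in NCI-H660, whereas UNC5B changed in the direction of MYCL in both lines. The values of SEMA6D and NTN1 rest on 0 or 1 counts in each C4-2B control library. Neither they nor SEMA6B were tested when every library had to hold at least 10 counts. With 1 of the 8 libraries left out in turn, UNC5A was called in 2 fits, SEMA3C and PLXNA1 in 3, SEMA4C in 5 and the other 6 genes in all 8. On log2(TPM + 1) only SEMA6B, PLXND1 and NRP1 of the 10 were called. The 40 tested members include DCC, ROBO2 and ROBO3, for which the count fit gives no usable estimate. Groups of 2 libraries are too small for a search for outlying samples.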

How the results depend on the processing

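Of 8 members called in C4-2B, a minimum log2 fold change of 1 left 5, and limma left 3 on log2(TPM + 1), 2 without the filter on TPM and 3 after centring, while its 5 calls on log2(TPM + 0.1) were 3 of the 8 and PLXNA1 and PLXNB1. Of the 14 called in NCI-H660, 2 were left with the minimum of 1, 4 and 4 by limma with the 2 pseudocounts, 0 without the filter (1 of all 29413 genes was called there, and 5469 had an unadjusted p under 0.05), 5 after centring and 9 in the fit of all 4 groups, while DESeq2 kept 10 and RLE scaling 13, without SEMA3F. The 34 called between the lines became 14 when each library had to hold at least 10 counts, which left 20 members tested. Over all genes, 8512 of 12771 were then called. This filter kept 6 of the 8 calls in C4-2B, without NTN1 and SEMA6B, beside 3227 of 14838 genes. In NCI-H660 it kept 13 of 14, without NTN1, beside 2643 of 15318 genes. For the interaction it kept 7 of 10, without SEMA6B, NTN1 and SEMA6D, beside 3285 of 12771 genes. Of the 10 called for the interaction, 6 were left with the minimum of 1. Over all genes, the minimum of 1 left 1411 of 16866 in C4-2B, 1022 of 16980 in NCI-H660 and 1666 of 19605 for the interaction. In NCI-H660 that was a larger share than the 2 of 37 members. The 3 limma fits made 4 calls each, of which 3 (SEMA6B, PLXND1 and NRP1) were among the 10 on log2(TPM + 1), with or without the filter, and 4 (NTN1 too) on log2(TPM + 0.1), and centring gave 5, the same 3 with ROBO2 and ROBO3. DESeq2 and RLE scaling kept all 8 calls in C4-2B and all 10 of the interaction. With the replicate block the counts were 8, 13, 34 and 10, SEMA5B losing its call in NCI-H660, and same-numbered libraries correlated at 0.033 in C4-2B and 0.046 in NCI-H660. Leaving out a library gave 7 to 9 calls in C4-2B, 7 to 11 in NCI-H660, 33 to 34 between the lines and 6 to 10 for the interaction, the lowest of the last without C4-2B MYCL replicate 1 or shMYCL replicate 2. SEMA3F, not called between the lines at -0.03, reversed to 0.53 on log2(TPM + 1), 0.57 on log2(TPM + 0.1) and 0.53 without the filter. The median change over all genes tested was 0.52, 0.62 and 0.04 in these fits. Beyond the fold minimum and the filters, which call or test fewer genes by construction, the cause was not tested. With 2 libraries a group, changes near the minimum depend on single libraries, and members under about 15 counts in a group's libraries have wide counting intervals.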
